A study of Mus musculus with 12 samples.

Results

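Most of the genes described here serve homologous recombination and the Fanconi anaemia pathway. These are the cell's main ways of mending broken DNA and crosslinked strands with an intact copy as the template. All of the genes were chosen by symbol. The symbols covered Fanconi genes, the Rad50 to Rad54 and Xrcc2 to Xrcc6 families, BRCA genes with partners, and kinases that signal DNA damage. The rule found 42 probe sets of 37 genes, out of 35556 probe sets and 19938 genes measured. Of the 37, 3 (Xrcc4, Xrcc5 and Xrcc6) act in end joining, which reseals a break without a template. Another 2, Rad54l2 and Fancd2os, matched by symbol without a known part in recombination. Xrcc2 and Rbbp8 had no probe set of a single gene symbol in the gene table used and were not analysed here. Of the 37 genes, 36 had a mean above the median of all probe sets, and the exception was Fancd2os.

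The study asked how loss of Zfx, a zinc finger factor encoded on the X chromosome, bears on the genes that Myc, a proto-oncogene and transcription factor, turns on in mouse myeloid progenitors. The 4 kinds of culture, with 3 arrays each, came from c-Kit+ bone marrow cells: Myc virus in Zfx ko cells, Myc virus in Zfx wt cells, GFP control virus in Zfx ko cells, and GFP control virus in Zfx wt cells. All mice carried CreER, a Cre recombinase that tamoxifen switches on, and all received tamoxifen by gavage at 5 mg daily for 3 days. Zfx ko mice were Zfx fl/y CreER and Zfx wt mice were Zfx wt/y CreER. Both viruses carried GFP. Infected GFP+ cells were sorted at 48 hours, then cultured for another 4 days in medium with serum and the cytokines SCF, IL-3 and IL-6 (10 ng/mL of each). The labels do not give the age of the mice or say whether arrays with the same replicate number came from 1 mouse, and the p-values measure the spread between these arrays.

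Homologous recombination starts when the Mre11, Rad50 and Nbn proteins bind a broken end and the kinase Atm is activated, while Atr answers to stretches of single-stranded DNA at stalled forks. Brca1 and Brca2, bridged by Palb2, then act together to start the pairing of the broken end with the intact copy, in which Rad51d and its relatives and the Rad54 proteins help. In the Fanconi pathway a core complex with the ubiquitin ligase Fancl marks Fancd2 and Fanci at crosslinks, and bone marrow failure is the best known result of its loss in people. Levels are given below as deposited intensities on a linear scale, and differences as log2 changes ± the standard error of the fit, with p-values adjusted by Benjamini-Hochberg over all 19938 genes in limma and called at 0.05. Arrays of equal replicate number deviated together, so a p from a fit with the number as a block ("blocked adjusted p") is given where it changes a call.

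The arrays labelled Zfx ko did not have less signal for Zfx itself. Its probe set (chromosome X) read 996, 972 and 1094 in the GFP ko arrays against 862, 987 and 989 in the GFP wt arrays, and 1036, 1116 and 991 in the Myc ko arrays against 1019, 991 and 966 in the Myc wt arrays, with adjusted p = 0.619 under GFP and 0.789 under Myc. The labels do not say if its probes lie in the deleted part. The names ko and wt therefore stand below for the submitters' labels. The Myc probe set read 5210, 4746 and 5180 in the Myc ko arrays and 5356, 4842 and 5493 in the Myc wt arrays, against 2841, 2551 and 2712 in the GFP ko arrays and 3146, 2787 and 3108 in the GFP wt arrays. The Myc-virus arrays lay above all GFP-virus arrays (adjusted p = 0.000342 in ko and 0.000724 in wt cells). Kit, the receptor used to isolate the cells, read 691 to 1582 over the 12 arrays, Mpo, an enzyme of myeloid granules, 9644 to 14610, and Cd3e, a T cell gene, 99.9 to 128.5. Array medians lay between 127 and 137.2.

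RefSeq promoter windows of GRCm38.p6, from 250 bases before to 50 bases after a gene's start, were at hand for 31 of the 37 genes, in 35 windows. Printed 5′ to 3′, as 300 bases each, are those of Fancl and of the 4 genes called with Myc in both genotypes. These 4 are Xrcc6, Atm, Mre11a and Fance. Rad51d, the 1 member called in the Zfx comparisons, had no window. Fancl was not called there in the unblocked fit of all arrays, but was lower in ko cells in the blocked fits under both viruses. The same held for Fanca, whose window, not printed here, has CCAAT boxes and no AGGCCT. Capitals mark the following letters, searched on both strands: CCAAT is the CCAAT box, TTTCGCG is an E2F-type site as is TTTGGCG and also the form TTTCCCG. The CHR-type element is TTTGAA, the E box that Myc binds is CACGTG, and AGGCCT is the core of the Zfx site. The windows are chr15:82016119-82016418 (plus strand), chr9:53536622-53536921 (minus strand), chr9:14784404-14784703 (plus strand), chr17:28313280-28313579 (plus strand) and chr11:26386834-26387133 (plus strand).
Xrcc6: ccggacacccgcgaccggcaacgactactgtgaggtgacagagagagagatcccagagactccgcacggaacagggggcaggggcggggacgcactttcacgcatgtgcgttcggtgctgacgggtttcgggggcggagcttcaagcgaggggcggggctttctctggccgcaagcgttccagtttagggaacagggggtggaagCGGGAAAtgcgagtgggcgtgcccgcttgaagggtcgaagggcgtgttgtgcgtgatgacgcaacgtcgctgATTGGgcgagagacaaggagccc
Atm: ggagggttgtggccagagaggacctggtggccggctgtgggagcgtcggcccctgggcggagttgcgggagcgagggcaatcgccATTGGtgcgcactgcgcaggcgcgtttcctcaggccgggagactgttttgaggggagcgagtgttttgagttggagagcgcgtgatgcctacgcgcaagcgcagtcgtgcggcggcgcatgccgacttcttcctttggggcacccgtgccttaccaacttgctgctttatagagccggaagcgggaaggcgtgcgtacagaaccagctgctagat
Mre11a: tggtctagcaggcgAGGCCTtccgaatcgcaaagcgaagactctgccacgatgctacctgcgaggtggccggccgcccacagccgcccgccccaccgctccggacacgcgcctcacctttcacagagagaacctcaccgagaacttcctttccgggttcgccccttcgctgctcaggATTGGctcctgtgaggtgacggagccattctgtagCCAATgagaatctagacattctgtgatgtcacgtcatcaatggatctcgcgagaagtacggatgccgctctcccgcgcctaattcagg
Fance: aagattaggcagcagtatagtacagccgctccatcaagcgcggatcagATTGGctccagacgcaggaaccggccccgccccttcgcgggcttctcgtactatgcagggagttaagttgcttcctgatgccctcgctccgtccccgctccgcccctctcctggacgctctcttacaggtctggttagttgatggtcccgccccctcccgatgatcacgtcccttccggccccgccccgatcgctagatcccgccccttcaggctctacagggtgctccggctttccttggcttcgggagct
Fancl: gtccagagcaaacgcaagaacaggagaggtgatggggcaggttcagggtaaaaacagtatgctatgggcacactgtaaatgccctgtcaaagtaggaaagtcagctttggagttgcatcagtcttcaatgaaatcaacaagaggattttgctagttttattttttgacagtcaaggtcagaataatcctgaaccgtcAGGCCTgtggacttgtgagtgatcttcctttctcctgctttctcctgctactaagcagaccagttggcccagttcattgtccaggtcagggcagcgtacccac
Positions are relative to the start on which each window was built. The Xrcc6 window lies wholly inside the gene span given below, so its start is not the edge of that span. The start used for Atm also differs from the edge of its span. In these letters Xrcc6 holds an E2F-type match at -45 and a CCAAT box at 28 relative to that start, and Mre11a CCAAT boxes at -73 and -38. Atm and Fance each hold a CCAAT box, at -165 and -202. AGGCCT stands at -236 in Mre11a and at -53 in Fancl.

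Across the 35 windows of the members, 65.7% held a CCAAT box, against 37.4% of all 32851 windows. An E2F-type match stood in 34.3% of the member windows, against 5.58% of all windows. AGGCCT stood in 20% of the member windows and 10.3% of all, the E box in 5.71% and 7.15%, and TTTGAA in 5.71% and 17.9%. Among the 19116 windows of measured genes, a CCAAT box stood in 37.4%, an E2F-type match in 7.31% and AGGCCT in 10.2%. The E box stood in 8.26% of these and TTTGAA in 14.8%. Some genes have more than 1 window, those of Rad51b and of Rad54l overlap, and a match of letters is not a bound site. The E box was found in Xrcc5 and in a window of Rmi1 alone, and the 5 windows printed above had none.

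With Myc, 7 of the 37 members rose in cells labelled Zfx ko and 7 rose in cells labelled Zfx wt, with Atm, Fance, Mre11a and Xrcc6 in both sets. In ko cells the other 3 were Blm, Chek2 and Fancf, and in wt cells they were Atr, Fancb and Rad51d. The sizes were modest, between 1.19-fold (Chek2) and 1.42-fold (Xrcc6) in ko cells and between 1.24-fold (Mre11a) and 1.54-fold (Atr) in wt cells. Among all genes, 8.58% rose in ko and 6.17% in wt cells, and 4.59% and 3.11% fell. The members' share called higher was 18.9% in each genotype. None of the members fell in limma at this threshold. The background was higher among the 10744 genes above the median of all probe sets, which hold 36 of the members. In a fit of these genes alone, 16.8% rose and 9.48% fell in ko cells, with 8 members higher and 0 lower. In wt cells 12.3% rose and 6.43% fell, with 7 members higher and 1 lower. At an unadjusted p under 0.05, 17 members were higher and 1 lower (Rad51c) in ko cells, beside 14.7% and 9.33% of all genes. In wt cells 11 were higher and 2 lower (Brip1, Rad54b), beside 12.9% and 7.57% of all genes.

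The median member was higher with Myc by 0.19 on the log2 scale in ko cells and by 0.14 in wt cells, beside 0.01 and 0.00 over all genes. The ko and wt Myc contrasts share no arrays, and 32 of 37 members had the same sign in both (86.5%, against 72.2% of all genes). In 21 members (56.8%, against 18.5% of all genes) the Myc array was above the GFP array of equal number in 6 of 6 pairs. Groups without any overlap of arrays were found for 16 members higher and 1 lower in ko cells (15.6% and 9.88% of all genes) and for 11 higher and 2 lower in wt cells (15.1% and 9.44%). Fancg and Rad51c were below the GFP array of equal number in 6 of 6 pairs, which is 5.41% of members and 13.7% of all genes. With the replicate block 18 members rose and 1 fell in ko cells, and 13 rose and 4 fell in wt cells, where all genes gave 14.5% and 10.4% in ko and 12.2% and 8.25% in wt. A second quantile normalization split the wt calls as 5 higher and 2 lower (Brip1, Rad54b) and the ko calls as 6 higher and 0 lower, where all genes gave 6.16% and 3.71% in wt and 8.73% and 5.37% in ko. The wt count was 3 without Myc wt 1 or Myc wt 3, where 5.88% and 4.31% of all genes were called in either direction. It was 4 without GFP wt 1, 2 or 3 (6.06%, 7.8% and 4.2% of all genes), of which Rad54b without GFP wt 2 was lower. The ko count was 4 without GFP ko 1 or Myc ko 3 (8.35% and 7% of all genes). Fitting only the Myc ko and GFP ko arrays left 3 (7.11% of all genes), with Atm, Blm, Chek2 and Fance no longer called.

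**Figure D1:**
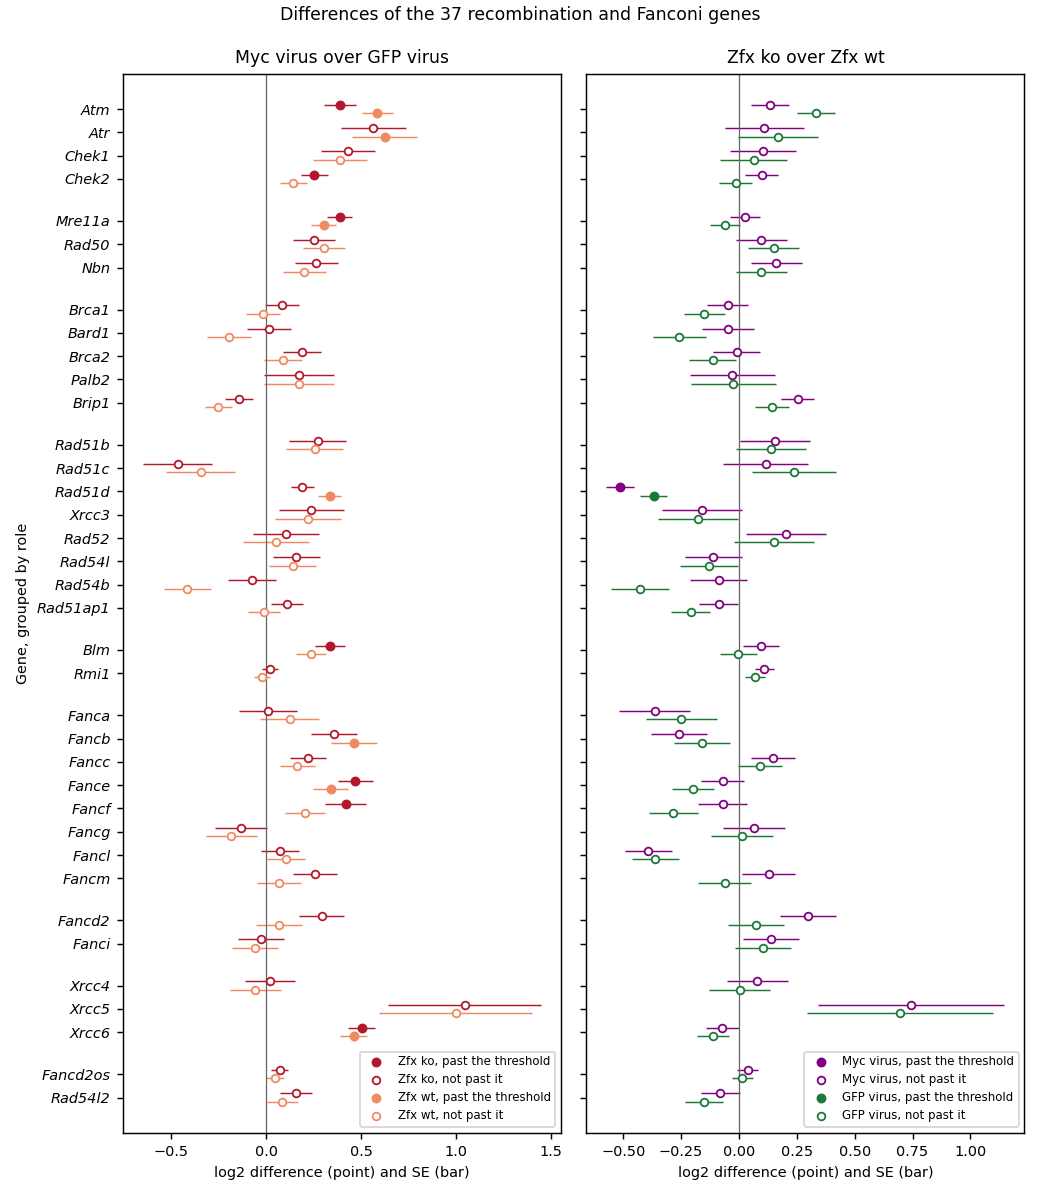
Log2 difference of each of the 37 members (rows, by role) in the Myc comparisons and in the Zfx comparisons, with a point for the estimate, a bar for its standard error and filled points past the threshold. The points of most members lie right of 0 in the Myc panels, while Rad51d is the 1 member called in both Zfx panels.

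All 4 signalling kinases had higher means with Myc in both genotypes, and 2 of them passed in each. Atm, the kinase activated by double-strand breaks (chromosome 9, 53437122 to 53536828 on GRCm38.p6), read 947, 981 and 867 in Myc ko, 884, 840.1 and 822 in Myc wt, 641, 719 and 780.1 in GFP ko and 561, 609 and 527 in GFP wt cells. Every Myc array was above every GFP array. The log2 difference was 0.39 ± 0.08 in ko cells (adjusted p = 0.0127) and 0.59 ± 0.08 in wt cells (adjusted p = 0.00325), and both calls held without each array in turn. With only the compared groups fitted, the ko call was lost (adjusted p = 0.0605). Atr, the kinase of stalled forks (chromosome 9, 95857597 to 95953217), read 835, 807 and 889 in Myc ko, 899, 607 and 875 in Myc wt, 481, 563 and 686 in GFP ko and 570.1, 427 and 536 in GFP wt cells. Myc and GFP arrays did not overlap within a genotype, although Myc wt 2 lay well below the other Myc arrays. Its difference passed in wt cells (0.62 ± 0.17, adjusted p = 0.048) and not in ko cells (0.56 ± 0.17, adjusted p = 0.0567, blocked adjusted p = 0.0118). The wt call was lost in 5 of 6 fits that left an array out, with adjusted p up to 0.182 (all but the fit without Myc wt 2), and with second quantile normalization or only the compared groups fitted (adjusted p up to 0.105).

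Chek1 and Chek2, the kinases that Atr and Atm activate, also had higher means with Myc. Chek1 intensities were 1552, 2029 and 1653 in Myc ko, 1550, 1794 and 1504 in Myc wt, 1047, 1537 and 1317 in GFP ko and 1264, 1300 and 1133 in GFP wt cells. Within each genotype the groups did not overlap, and the array numbered 2 was the highest of every group. The differences of 0.43 ± 0.14 and 0.39 ± 0.14 in ko and wt cells did not pass (adjusted p = 0.0774 and 0.134, blocked adjusted p = 0.00666 and 0.0137). Chek2 gave 825, 725 and 742 in Myc ko, 746, 707 and 687 in Myc wt, 658, 597 and 668 in GFP ko and 668, 608 and 664 in GFP wt cells. All Myc arrays of a genotype were above its GFP arrays. Its difference of 0.25 ± 0.07 in ko cells passed (adjusted p = 0.0392). With an array left out it held only without Myc ko 2, with adjusted p up to 0.124 in the other 5 fits, and it was also lost with second quantile normalization, a trended robust prior or only the compared groups fitted (adjusted p up to 0.121). In wt cells 0.14 ± 0.07 did not pass (adjusted p = 0.307).

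**Figure D2:**
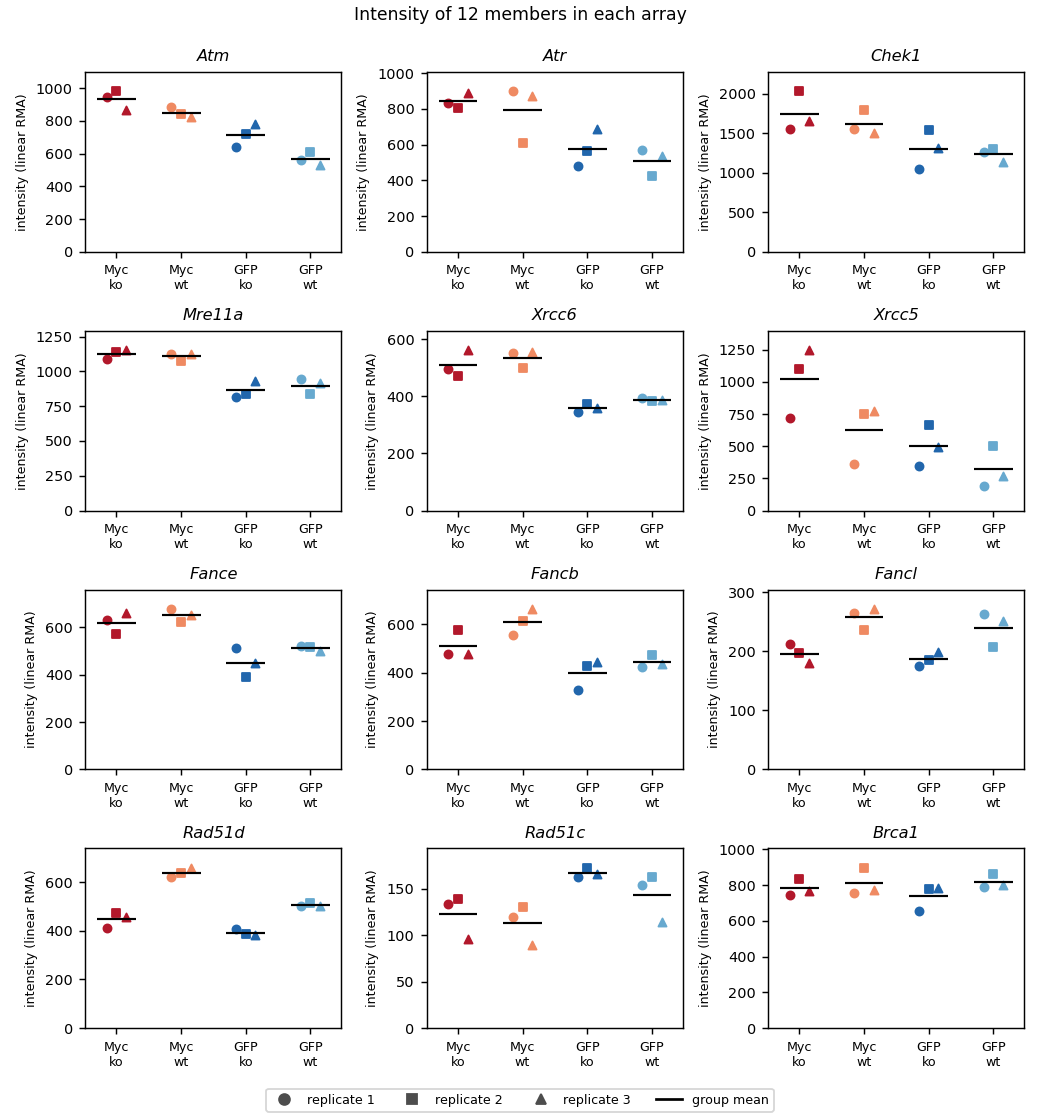
Deposited intensity (linear scale, from 0) of 12 members, with 1 point for each array and a line for the mean of 3 arrays, in the order Myc ko, Myc wt, GFP ko, GFP wt. Atm, Xrcc6, Mre11a and Fance stand higher in the Myc groups, Rad51d stands lower in both ko groups, and Xrcc5 spreads within every group.

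Of the complex that first binds broken ends, the nuclease Mre11a (chromosome 9, 14784654 to 14837125) had the tightest Myc difference. It read 1091, 1137 and 1153 in Myc ko, 1122, 1077 and 1125 in Myc wt, 818, 839 and 932 in GFP ko and 943, 836 and 917 in GFP wt cells. Both Myc groups lay wholly above both GFP groups. The log2 difference was 0.39 ± 0.07 in ko cells (adjusted p = 0.00418), kept without each array. In wt cells it was 0.30 ± 0.07 (adjusted p = 0.0162), lost without Myc wt 1, GFP wt 2 or Myc wt 3 (adjusted p up to 0.0675). Its partners Rad50, which tethers the ends, and Nbn, which recruits Atm, did not pass in either genotype. Rad50 differed by 0.25 ± 0.11 in ko and 0.31 ± 0.11 in wt cells (blocked adjusted p = 0.0151 and 0.00737), and Nbn by 0.27 ± 0.11 (blocked adjusted p = 0.0261) and 0.20 ± 0.11.

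End joining, the route that reseals a break without a template, entered through the Xrcc symbols. Xrcc6 (Ku70, chromosome 15, 81987833 to 82040085) read 494, 472 and 561 in Myc ko, 552, 498 and 553 in Myc wt, 344, 373 and 359.6 in GFP ko and 393, 384 and 386 in GFP wt cells. The lowest Myc array was above the highest GFP array of either genotype. Its difference of 0.50 ± 0.07 in ko cells (adjusted p = 0.00203) and 0.46 ± 0.07 in wt cells (adjusted p = 0.00459) held without each array. Xrcc5 (Ku80), its partner in the Ku ring (chromosome 1, 72307417 to 72394953), read 721, 1101 and 1248 in Myc ko, 364, 749.7 and 773 in Myc wt, 344, 663 and 495 in GFP ko and 195, 499.5 and 272 in GFP wt cells. This was the widest spread of any member, 2.68 on the log2 scale over 12 arrays, and the array numbered 1 was the lowest of every group. The Myc differences of 1.05 ± 0.40 and 1.00 ± 0.40 in ko and wt cells were the largest among the members and did not pass (adjusted p = 0.131 and 0.179, blocked adjusted p = 0.00206 and 0.00345). Xrcc4, the scaffold of the end-joining ligase, differed by 0.02 ± 0.13 and -0.06 ± 0.13.

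In the Fanconi core complex, 2 of 8 measured subunits passed in each genotype, Fance and Fancf in ko cells and Fancb and Fance in wt cells. Fance, which links the core complex to Fancd2 (chromosome 17, 28313530 to 28326574), read 632, 571 and 659 in Myc ko, 679, 622 and 654 in Myc wt, 513, 392 and 448 in GFP ko and 523, 519 and 499 in GFP wt cells. Myc arrays were above the GFP arrays of their genotype without overlap. The difference was 0.47 ± 0.09 in ko cells (adjusted p = 0.00835), kept without each array but lost with only the compared groups fitted (adjusted p = 0.0615). In wt cells it was 0.34 ± 0.09 (adjusted p = 0.0434), lost in each of the 6 fits with an array left out (adjusted p 0.0633 to 0.148), with second quantile normalization and with a trended robust prior (adjusted p up to 0.107). Fancf, an adaptor of the core complex (chromosome 7, 51860577 to 51862267), read 799, 763 and 931 in Myc ko, 881, 792 and 942 in Myc wt, 637, 582 and 641 in GFP ko and 760, 664 and 849.8 in GFP wt cells. Its GFP ko arrays were below all others. In ko cells the difference of 0.42 ± 0.11 passed (adjusted p = 0.0268) but was lost without GFP ko 1, 2 or 3 or Myc ko 3 (adjusted p up to 0.109), or with second quantile normalization (adjusted p = 0.0616). In wt cells 0.21 ± 0.11 did not pass (adjusted p = 0.337, blocked adjusted p = 0.0239).

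Fancb, the X-linked subunit that stabilises the ligase module (chromosome X, 164980480 to 164997272), read 478, 576 and 479.8 in Myc ko, 556, 615 and 664 in Myc wt, 329.7, 429 and 445 in GFP ko and 423, 472 and 437 in GFP wt cells. Myc arrays were above the GFP arrays of their genotype. Its wt difference of 0.46 ± 0.12 passed (adjusted p = 0.0388) and was lost in each of the 6 fits with an array left out (adjusted p 0.0513 to 0.156) and with arrays centred on their medians (adjusted p = 0.0731). The difference of 0.36 ± 0.12 in ko cells did not pass (adjusted p = 0.0834, blocked adjusted p = 0.012). Fanca, the subunit most often mutated in people with the disease, read 604, 500.1 and 512 in Myc ko, 802, 590.1 and 698 in Myc wt, 587, 484 and 535 in GFP ko and 769, 520.4 and 637 in GFP wt cells. Its Myc and GFP arrays overlapped in both genotypes, with differences of 0.01 ± 0.15 and 0.12 ± 0.15. Fancg, which binds Fanca, read 887, 679 and 786 in Myc ko, 799, 684 and 757 in Myc wt, 906, 756 and 908 in GFP ko and 830.3, 722 and 1007 in GFP wt cells. Its differences of -0.13 ± 0.14 in ko and -0.18 ± 0.14 in wt cells were below 0 and did not pass.

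Among the other subunits the ligase Fancl differed by 0.07 ± 0.10 and 0.11 ± 0.10 with Myc in ko and wt cells, and the translocase Fancm by 0.26 ± 0.11 and 0.07 ± 0.11. Fancc, which joins Fance and Fancf, differed by 0.22 ± 0.09 (blocked adjusted p = 0.0359) and 0.17 ± 0.09, and none of these passed. Fancd2, the protein that the core complex marks (chromosome 6, 113531640 to 113597020), read 1255, 1140 and 1347 in Myc ko, 1126, 879 and 1046 in Myc wt, 1050, 927 and 1079 in GFP ko and 1066, 828 and 1021 in GFP wt cells. Its Myc ko arrays were above all others, and in wt cells the groups overlapped. The differences were 0.29 ± 0.12 in ko cells (adjusted p = 0.158, blocked adjusted p = 0.00457) and 0.07 ± 0.12 in wt cells (adjusted p = 0.898). Its partner Fanci differed by -0.03 ± 0.12 and -0.06 ± 0.12.

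Among Brca1, Brca2 and their partners no difference with Myc passed in the unblocked fit of all arrays. Brca1, the tumour suppressor that directs breaks toward recombination (chromosome 11, 101488761 to 101551955), read 744, 834 and 769 in Myc ko, 756, 898 and 776 in Myc wt, 658, 778 and 783 in GFP ko and 789, 866 and 799.7 in GFP wt cells. Myc and GFP arrays overlapped in both genotypes. Brca2, a tumour suppressor that acts in strand exchange (chromosome 5, 150522297 to 150570147), read 779.6, 824 and 827 in Myc ko, 839, 870.3 and 742 in Myc wt, 732, 660.3 and 738 in GFP ko and 868, 659 and 790.1 in GFP wt cells. In ko cells its Myc arrays were above its GFP arrays by 0.19 ± 0.10 (adjusted p = 0.296), and in wt cells the groups overlapped. Palb2, which joins Brca1 to Brca2, read 301, 223 and 261 in Myc ko, 315, 213 and 277 in Myc wt, 243, 189.5 and 267 in GFP ko and 266, 194 and 251 in GFP wt cells. The array numbered 2 was the lowest of every group, and its difference of 0.17 ± 0.18 in ko cells had a 95% interval of -0.24 to 0.58.

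Brip1, a helicase that binds Brca1 (chromosome 11, 86058136 to 86201215), read 857, 820 and 762 in Myc ko, 664, 724 and 659 in Myc wt, 835, 875 and 984 in GFP ko and 786, 836 and 811 in GFP wt cells. Its Myc wt arrays lay below its GFP wt arrays, with a difference of -0.25 ± 0.07 (adjusted p = 0.0612, blocked adjusted p = 0.0375), and the groups overlapped in ko cells (-0.14 ± 0.07, adjusted p = 0.292). It was called lower in wt cells after second quantile normalization and in both genotypes with array weights. Bard1, the ubiquitin ligase partner of Brca1, differed by -0.20 ± 0.11 in wt cells (adjusted p = 0.42, blocked adjusted p = 0.0399) and by 0.02 ± 0.11 in ko cells.

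Of the 8 strand exchange genes, Rad51d alone passed with Myc, in wt cells. Rad51d (chromosome 11, 82871960 to 82890624) read 412, 473 and 459 in Myc ko, 619, 636 and 659 in Myc wt, 406, 388 and 382 in GFP ko and 502, 516 and 500 in GFP wt cells. Myc arrays were above the GFP arrays of their genotype and ko arrays were below the wt arrays of their virus. With Myc it rose by 0.33 ± 0.06 in wt cells (adjusted p = 0.00774), kept without each array. It differed by 0.19 ± 0.06 in ko cells (adjusted p = 0.0625, blocked adjusted p = 0.0382). Rad51c, which forms complexes with Rad51d and with Xrcc3 (chromosome 11, 87376645 to 87404954), had the lowest Myc difference of the members in ko cells. It read 133, 139 and 95.8 in Myc ko, 119.5, 131 and 89.4 in Myc wt, 162, 173 and 166 in GFP ko and 154, 162 and 114 in GFP wt cells. Myc ko arrays were all below GFP ko arrays, and the wt groups overlapped. Its differences of -0.46 ± 0.18 and -0.34 ± 0.18 did not pass (adjusted p = 0.138 and 0.351, blocked adjusted p = 0.0069 and 0.0346).

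Rad54b, a helper of strand invasion (chromosome 4, 11558920 to 11615808), read 269, 270.2 and 231 in Myc ko, 297, 272 and 249 in Myc wt, 269, 245 and 298 in GFP ko and 407, 301 and 388 in GFP wt cells. Its GFP wt arrays were above all others. The differences were -0.07 ± 0.12 in ko cells (adjusted p = 0.862) and -0.41 ± 0.12 in wt cells (adjusted p = 0.0674, blocked adjusted p = 0.0272). Xrcc3 and Rad51b, of the same group, differed by 0.24 ± 0.17 and 0.27 ± 0.15 in ko and by 0.22 ± 0.17 and 0.26 ± 0.15 in wt cells. They passed only with the block (blocked adjusted p = 0.0167 and 0.0399 in ko, 0.0288 for Xrcc3 in wt). Rad52, Rad54l and Rad51ap1, which help strands to pair, differed by at most 0.16 with Myc in ko cells and 0.14 in wt cells, in both cases Rad54l.

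Blm, the helicase that dissolves joined chromosomes after exchange (chromosome 7, 80454993 to 80535148), read 1291, 1371 and 1577 in Myc ko, 1324, 1253 and 1379 in Myc wt, 1034, 1143 and 1178 in GFP ko and 1130, 1104 and 1120 in GFP wt cells. Myc arrays lay above the GFP arrays of their genotype. In ko cells it rose by 0.34 ± 0.08 (adjusted p = 0.0189), lost without GFP ko 1 or Myc ko 3 (adjusted p up to 0.0716) and with only the compared groups fitted (adjusted p = 0.096). In wt cells the difference was 0.24 ± 0.08 (adjusted p = 0.0969, blocked adjusted p = 0.0265). Rmi1, its partner, was among the steadiest members, from 1887 to 2109 over the 12 arrays, with Myc differences of 0.02 ± 0.04 and -0.02 ± 0.04. Rad54l2 and Fancd2os matched the symbol rule with no known part in recombination, and differed by at most 0.16 (Rad54l2 in ko cells).

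**Figure D3:**
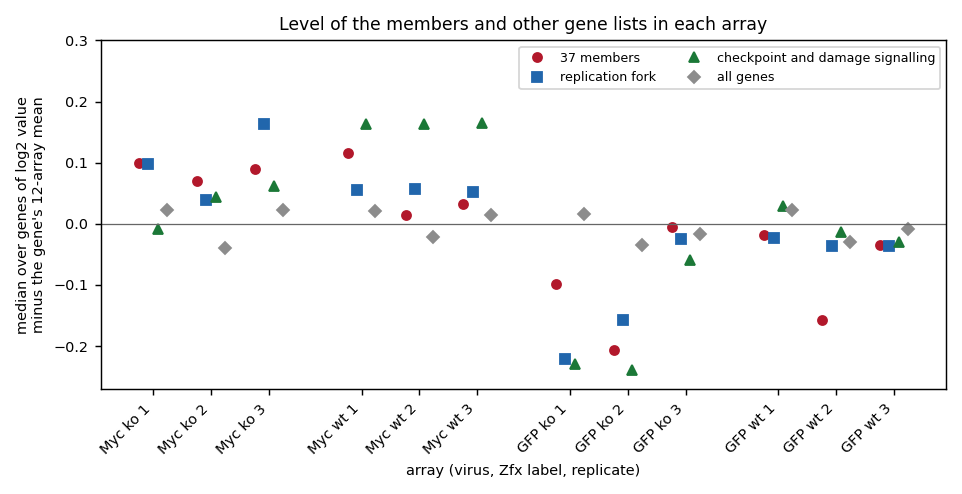
Median over genes of the log2 value minus the gene's mean over the 12 arrays (y axis), for the members and 3 other sets of genes in each array (x axis), Myc groups left of GFP groups and ko left of wt. The medians of the members lie between 0.015 and 0.116 in the 6 Myc arrays and between -0.207 and -0.005 in the 6 GFP arrays.

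In cells labelled Zfx ko, Rad51d was the 1 member past the threshold, and it was lower than in wt under both viruses. It read 406, 388 and 382 in the GFP ko arrays against 502, 516 and 500 in the GFP wt arrays, and 412, 473 and 459 in the Myc ko arrays against 619, 636 and 659 in the Myc wt arrays. No ko array reached a wt array of the same virus. The log2 difference was -0.37 ± 0.06 with GFP (0.77-fold, adjusted p = 0.00657) and -0.51 ± 0.06 with Myc (0.70-fold, adjusted p = 0.000859). Of all genes, 2.94% fell and 1.17% rose with GFP, and 3.72% fell and 1.74% rose with Myc. No member rose in limma at this threshold. At an unadjusted p under 0.05 with GFP, 1 was higher (Atm) and 6 lower (Bard1, Fancf, Fancl, Rad51ap1, Rad51d, Rad54b), beside 5.86% and 8.75% of all genes. With Myc 3 were higher (Brip1, Fancd2, Rmi1) and 3 lower (Fanca, Fancl, Rad51d), beside 6.75% and 9.08% of all genes. The Rad51d call held without each array in turn, with adjusted p up to 0.0314 with GFP and 0.0067 with Myc. Since the Zfx probe set was not lower in ko arrays, which cells lack Zfx rests on the labels.

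The median member differed by -0.01 with GFP and 0.07 with Myc, beside -0.01 and 0.00 over all genes. The GFP and Myc contrasts for Zfx share no arrays, and 33 of 37 members (89.2%, against 69.4% of all genes) had the same sign in both. Ko arrays were above the wt arrays of equal number in 6 of 6 pairs for 9 members and below them for 9, which is 24.3% each, against 11.6% and 14.4% of all genes. Arrays did not overlap for 3 members higher and 7 lower in ko cells with GFP (7.44% and 10.5% of all genes) and for 3 higher and 2 lower with Myc (8.4% and 11.1%). With the replicate block 2 members rose (Atm, Xrcc5) and 6 fell (Bard1, Fanca, Fancf, Fancl, Rad51d, Rad54b) with GFP, where 5.12% and 7.12% of all genes did. With Myc, 4 rose (Brip1, Fancd2, Rad52, Xrcc5) and 3 fell (Fanca, Fancl, Rad51d), where 6.05% and 8.03% of all genes did. Second quantile normalization split the GFP calls as 1 higher (Atm) and 1 lower, and the Myc calls as 1 higher (Brip1) and 2 lower (Fancl, Rad51d), where all genes gave 1.3% and 3.07% with GFP and 1.96% and 3.64% with Myc. Centring the arrays on their medians gave 0 higher and 2 lower (Fancl, Rad51d) under each virus (0.863% and 2.77% of all genes with GFP, 1.4% and 3.3% with Myc). Without GFP ko 1 the GFP count was 2 and without GFP wt 2 it was 3 (2.84% and 2.81% of all genes), against 1 with all arrays.

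Fancl, the ligase of the Fanconi core complex (chromosome 11, 26387084 to 26471883), came next to Rad51d. It read 175, 185 and 199.5 in the GFP ko arrays against 264, 207 and 251 in the GFP wt arrays, and 212, 197 and 181 in the Myc ko arrays against 265, 237 and 272 in the Myc wt arrays. Ko and wt arrays did not overlap under either virus. The differences of -0.36 ± 0.10 with GFP (adjusted p = 0.0857, blocked adjusted p = 0.0286) and -0.39 ± 0.10 with Myc (adjusted p = 0.0509, blocked adjusted p = 0.0175) did not pass in the unblocked fit of all arrays. Fancl was also called lower without the block under both viruses after centring and with array weights. It was called with GFP without GFP wt 2, and with Myc after second quantile normalization and among genes above the median of all probe sets. Fanca, whose values stand above, differed by -0.25 ± 0.15 with GFP and -0.36 ± 0.15 with Myc (adjusted p = 0.561 and 0.265, blocked adjusted p = 0.0317 and 0.00485). Fancf differed by -0.28 ± 0.11 with GFP (adjusted p = 0.218, blocked adjusted p = 0.00817) and -0.07 ± 0.11 with Myc. Of the other core subunits, in the order GFP then Myc, Fancb differed by -0.16 ± 0.12 and -0.26 ± 0.12 and Fance by -0.20 ± 0.09 and -0.07 ± 0.09. Likewise Fancc differed by 0.09 ± 0.09 and 0.15 ± 0.09, Fancg by 0.01 ± 0.14 and 0.07 ± 0.14 and Fancm by -0.06 ± 0.11 and 0.13 ± 0.11, and none of these 5 passed.

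Fancd2 differed between ko and wt cells by 0.07 ± 0.12 with GFP and 0.30 ± 0.12 with Myc (adjusted p = 0.238, blocked adjusted p = 0.00712), and Fanci by 0.11 ± 0.12 and 0.14 ± 0.12. Brip1 differed by 0.14 ± 0.07 with GFP and 0.25 ± 0.07 with Myc (adjusted p = 0.0825, blocked adjusted p = 0.0478). Its Myc ko arrays lay above its Myc wt arrays, while with GFP the groups overlapped. Brca1 arrays did not overlap with GFP, where the ko arrays were lower by -0.15 ± 0.09 (adjusted p = 0.545), and overlapped with Myc. Brca2 and Palb2 differed by -0.11 ± 0.10 and -0.02 ± 0.18 with GFP and by -0.01 ± 0.10 and -0.03 ± 0.18 with Myc. Bard1 differed by -0.26 ± 0.11 with GFP (adjusted p = 0.323, blocked adjusted p = 0.0179) and -0.05 ± 0.11 with Myc.

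Among the kinases, Atm was higher in GFP ko than in GFP wt arrays without overlap (0.33 ± 0.08, adjusted p = 0.0553, blocked adjusted p = 0.0263) and overlapped with Myc (0.13 ± 0.08, adjusted p = 0.564). Atr, Chek1 and Chek2 differed by 0.17, 0.06 and -0.01 with GFP and by 0.11, 0.11 and 0.10 with Myc, and none passed. Xrcc5 had the largest Zfx differences, 0.70 ± 0.40 with GFP and 0.75 ± 0.40 with Myc (adjusted p = 0.524 and 0.453, blocked adjusted p = 0.028 and 0.0186), again across a wide spread. Rad54b differed by -0.43 ± 0.12 with GFP (adjusted p = 0.0973, blocked adjusted p = 0.035) and -0.09 ± 0.12 with Myc, and Rad52 by 0.15 ± 0.17 and 0.21 ± 0.17 (blocked adjusted p = 0.0278 with Myc). Rad51c differed by 0.24 ± 0.18 and 0.12 ± 0.18, opposite in sign to its relative Rad51d.

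The other members gave small differences between ko and wt cells. Rad51ap1 differed by -0.21 ± 0.08 with GFP and -0.09 ± 0.08 with Myc, and Xrcc6 by -0.11 ± 0.07 and -0.07 ± 0.07. Mre11a, Rad50 and Nbn differed by -0.06, 0.15 and 0.10 with GFP and by 0.03, 0.10 and 0.16 with Myc. Rmi1 differed by 0.07 ± 0.04 and 0.11 ± 0.04, small in size but without overlap between ko and wt arrays under either virus. None of these passed.

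Whether the Myc difference itself depended on the Zfx label was tested by the interaction. No member passed it in limma, with 0 members and 343 of 19938 genes (1.72%) at an unadjusted p under 0.05, and 0 genes passed after adjustment. With the block, 3 members (Bard1, Fancd2, Fancf) and 939 genes (4.71%) had an unadjusted p under 0.05, and 0 members and 1 gene (0.00502%) passed after adjustment. The estimate of the largest size was that of Rad54b, 0.34 ± 0.18, and Rad51d gave -0.14 ± 0.08. The 95% interval of a member's interaction reached a median of 0.35 to each side and 1.26 at the widest, so a difference of that size was not detectable here. Calls in ko cells alone, such as Blm and Chek2, and in wt cells alone, such as Atr and Fancb, are thus not shown to differ between the genotypes.

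Lists of related genes were set beside the members for scale. Of 37 other measured genes of homologous recombination and the Fanconi pathway, 6 rose in ko and 3 in wt cells with Myc, with medians of 0.12 and 0.05. They include Exo1 (0.56, adjusted p = 0.00267), a nuclease that resects ends, Rpa2 (0.44, adjusted p = 0.00502), a subunit of the protein that coats single-stranded DNA, and Faap24 (0.45, adjusted p = 0.0125), a partner of Fancm, in ko cells. In wt cells Exo1, Faap24 and Recql4 (0.37, adjusted p = 0.0152), a helicase, were called. In the Zfx comparisons 2 of these genes fell with GFP, Uimc1 (-0.48, adjusted p = 0.0131), a ubiquitin reader that brings Brca1 to breaks, and Ercc4 (-0.35, adjusted p = 0.0361), a crosslink nuclease, and Uimc1 alone fell with Myc (-0.39, adjusted p = 0.0283).

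Checkpoint and damage signalling genes other than the members rose with Myc in 5 of 19 cases in ko and 2 in wt cells, led by Rad1 (0.92, adjusted p = 0.000342), a clamp subunit. In ko against wt cells 5 of the 19 fell with GFP and 4 with Myc. Among these, Topbp1 (-0.40, adjusted p = 0.00294), the activator of Atr, Clspn (-0.42, adjusted p = 0.00631), the adaptor that lets Atr reach Chek1, and Paxip1 (-0.34, adjusted p = 0.00881) were lower with GFP. With Myc the called genes included Topbp1 (-0.39, adjusted p = 0.00288), Clspn (-0.30, adjusted p = 0.0288) and Tlk2 (-1.19, adjusted p = 0.0379). The medians of this list were -0.21 with GFP and -0.09 with Myc, while those of the members were -0.01 and 0.07. Atr, which Topbp1 activates, and Chek1, which Atr reaches through Clspn, did not pass in either Zfx comparison.

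**Figure D4:**
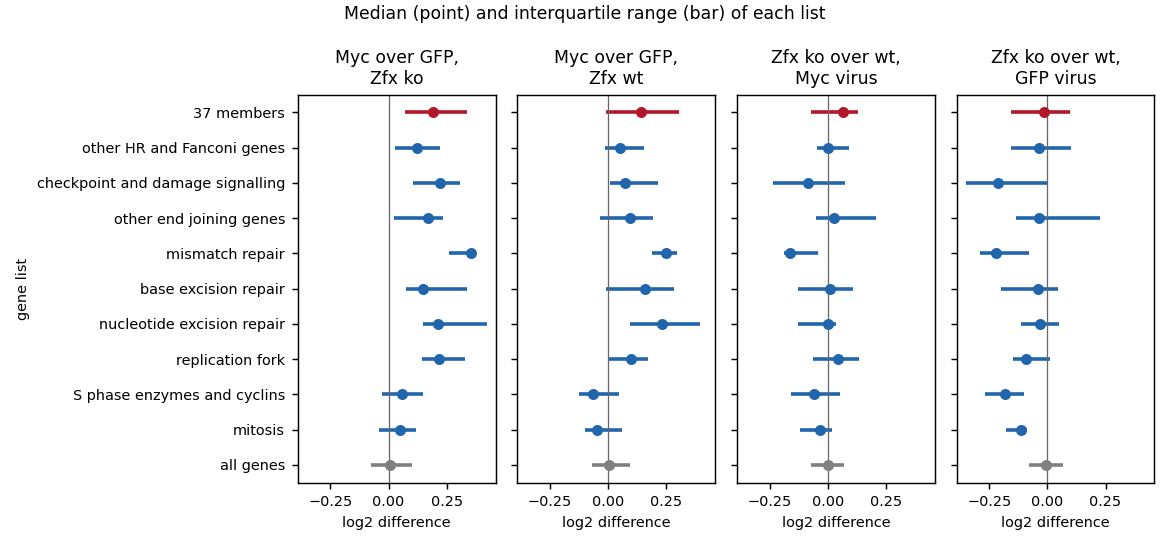
Median log2 difference (point) and interquartile range (bar) of the members, of other lists and of all genes, in the Myc and Zfx comparisons (panels). The members' median lies at 0.19 and 0.14 in the Myc panels and at 0.07 and -0.01 in the Zfx panels.

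The replication fork list, with polymerases, helicases and licensing factors, had 16 of 35 genes higher with Myc in ko and 3 in wt cells, with medians of 0.22 and 0.10. Examples in ko cells were Pola2 (0.48, adjusted p = 0.00272), Orc6 (0.33, adjusted p = 0.00948) and Pold2 (0.62, adjusted p = 0.0101). In ko against wt cells 4 of these genes fell with GFP, among them Gins2 (-0.33, adjusted p = 0.00318), Ticrr (-0.49, adjusted p = 0.0138) and Mcm3 (-0.28, adjusted p = 0.0159). Of 18 base excision repair genes 6 rose in ko and 4 in wt cells and 1 fell in each, with Apex1 (0.69, adjusted p = 0.00104) and Parp1 (0.55, adjusted p = 0.00185) among them. Of 16 nucleotide excision repair genes 5 rose in ko and 5 in wt cells, with Ercc8 (0.71, adjusted p = 0.00223), Gtf2h3 (0.85, adjusted p = 0.00588) and Ercc2 (0.46, adjusted p = 0.0068). Of this pathway Xpa (-0.61, adjusted p = 0.000371), which verifies damage, fell in ko against wt cells with GFP and with Myc (-0.40, adjusted p = 0.00355).

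Of 6 mismatch repair genes 3 rose with Myc in ko cells and 1 in wt cells, including Pms1 (0.54, adjusted p = 0.00211) and Msh6 (0.36, adjusted p = 0.0165). In the same list Mlh3 (-1.12, adjusted p = 0.00457) fell in ko against wt cells with GFP and with Myc (-1.03, adjusted p = 0.00607). Of 9 further end-joining genes 2 rose with Myc in ko cells, Tdp1 (0.51, adjusted p = 0.000818) and Aplf (0.23, adjusted p = 0.0318), and Tdp1 rose in wt cells. The end-joining ligase Lig4 (0.32, adjusted p = 0.0201) was higher in Myc ko than in Myc wt cells. Of 14 S phase enzymes and cyclins 1 fell with Myc in each genotype, and of 29 mitosis genes 4 rose and 2 fell in ko cells and 1 rose and 3 fell in wt cells. In ko against wt cells E2f1 (-0.67, adjusted p = 0.000373), a factor that drives S phase genes, Foxm1 (-0.40, adjusted p = 0.00523) and Mybl2 (-0.40, adjusted p = 0.00611) fell with GFP, and all 3 were also called lower with Myc (-0.57, -0.35 and -0.47).

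Genes that mark blood cell types moved in the same comparisons. With Myc, 12 of 15 neutrophil genes fell in ko and 8 in wt cells, and their summed intensity was 50953 to 59132 in Myc ko and 43832 to 61048 in Myc wt arrays, against 84353 to 103490 in GFP ko and 86696 to 105680 in GFP wt arrays. Of 13 mast cell and basophil genes 7 fell in each genotype and 1 rose in wt cells, with sums of 4582 to 8314 in Myc ko and 9261 to 22067 in Myc wt arrays, against 13238 to 17994 in GFP ko and 23134 to 29189 in GFP wt arrays. Of 9 erythroid genes 6 rose with Myc in ko and 1 in wt cells, with sums of 6111 to 11480 in Myc ko and 4835 to 6435 in Myc wt arrays, against 4454 to 5123 in GFP ko and 3890 to 4883 in GFP wt arrays. All 9 monocyte and macrophage genes had lower means with Myc in both genotypes, with medians of -0.43 in ko and -0.37 in wt cells on the log2 scale, and Lyz2 alone passed, in wt cells (-0.89, adjusted p = 0.0287). Their sums were 12060 to 19643 in Myc ko and 8639 to 16227 in Myc wt arrays, against 20552 to 23812 in GFP ko and 16112 to 21360 in GFP wt arrays. Of 10 stem and progenitor genes, Cd34 (-1.02, adjusted p = 0.0136) and Erg (-0.69, adjusted p = 0.0126) fell with Myc in ko cells and none was called in wt cells. The means of all 6 megakaryocyte genes were lower with Myc in both genotypes, with medians of -0.62 in ko and -0.54 in wt cells, and none passed without the block, while 2 passed with it in each genotype. The arrays thus differed in cell type markers as well as in repair genes, and in such bulk samples fewer cells of a type and less RNA per cell cannot be told apart.

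In ko against wt cells, 3 of 13 mast cell and basophil genes fell with GFP and 4 with Myc, and 4 of 9 erythroid genes rose with Myc. Of 15 neutrophil genes 1 rose under each virus and 1 fell with Myc. Of the stem and progenitor genes Hoxa9 fell under both viruses (-1.42 with GFP, adjusted p = 0.00084, and -1.37 with Myc, adjusted p = 0.000971), and with Myc Gata2 fell (-1.40, adjusted p = 0.0252) and Meis1 rose (1.73, adjusted p = 0.00659). None of the 9 monocyte and macrophage genes passed, with medians of 0.28 with GFP and 0.31 with Myc. The 6 megakaryocyte genes summed to 23199 to 30705 in GFP ko against 7882 to 15498 in GFP wt arrays, and 6363 to 19417 in Myc ko against 2082 to 8261 in Myc wt arrays. With the block 5 of the 6 were higher in ko cells under each virus, and without it their differences did not pass. Lymphoid genes stayed low, with sums of 438 to 495 over all 12 arrays. The part of these marker differences in the members' results was not tested.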

How the data were processed

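RNA of 12 cultures, 3 in each of 4 groups named from the sample titles, was measured on 1-colour gene arrays. The deposited table gives 1 intensity per probe set and array on a linear scale, made by the authors with RMA per the submitters' processing notes; its version is not given in the sources used here. No background or between-array step was repeated, and log2 was taken with no pseudocount. Probe sets with 1 symbol (21789) were reduced to the brightest per gene, which left 19938; 1621 probe sets with several symbols and 12146 outside the gene table were not used. Old symbols were matched to RefSeq by identifier (19856 genes).

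Group means over all 12 arrays (8 residual degrees of freedom, 6 with the block) were fitted in R 4.3.3 with limma 3.58.1 (lmFit, contrasts.fit, eBayes), in 5 contrasts, with Benjamini-Hochberg adjustment over all genes. The fit was tested on simulated data. Same-numbered arrays of different groups deviated together (correlation of deviations from group means 0.401 to 0.848 over 18 pairs, and -0.422 at the median for different numbers, which is partly built in), so the numbers were read as pairing the arrays from the values, not from the labels. Replicates of a group correlated at 0.9878 to 0.9957 and 0 were identical. The number of arrays limits the precision.

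Members and lists were chosen with earlier results of these data known. Values in every array are given for members past the threshold in any comparison, the 3 largest rises and falls in each, and Brca1, Brca2, Palb2, Fanca, Fancd2 and the 4 kinases; from the other lists, up to 3 called genes of lowest p are named per list and comparison. Alternatives were the block, a second quantile normalization, centring, a trended robust prior, array weights, a fit of the compared groups alone, a filter at the median of all probe sets, no reduction to 1 probe set a gene, the mean of a gene's probe sets, and each array left out.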

Additional observations from a re-analysis of the deposited data

How the results depend on the processing

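No called difference of a member changed sign in the alternatives run. The replicate block raised the members called to 19 for Myc in ko, 17 for Myc in wt, 8 for Zfx with GFP and 7 for Zfx with Myc, against 7, 7, 1 and 1, while the calls over all genes rose to 4959, 4082, 2440 and 2808, against 2626, 1851, 819 and 1089; every member call made without the block was also made with it. Array weights gave 13 for Myc in wt, 4 for Zfx with GFP and 2 for Zfx with Myc (16.1%, 8.08% and 7.42% of all genes). Fitting only the groups compared gave 3 for Myc in ko (7.11% of all genes), with fewer arrays in the fit. For Zfx, second quantile normalization gave 2 with GFP and 3 with Myc (4.37% and 5.6% of all genes). Centring gave 2 under each virus (3.63% of all genes with GFP and 4.69% with Myc). The restriction to genes above the median of all probe sets also gave 2 under each virus. Of the genes kept, 7.41% were called with GFP and 10.1% with Myc. With each array left out, the counts were 4 to 7 for Myc in ko and 3 to 5 for Myc in wt. All genes then gave 7% to 12.2% in ko and 4.2% to 8.02% in wt. For Zfx the counts were 1 to 3 with GFP and 1 with Myc. All genes gave 2.06% to 2.84% with GFP and 2.9% to 4.69% with Myc. The interaction stayed at 0 members. The cause of these moves was not tested. Quantile normalization and centring moved the median of all genes by at most 0.03. With 3 arrays in a group the median member's Myc or Zfx difference had a 95% interval of about 0.25 to each side, and for Xrcc5 it was 0.89.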

Other observations

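Of the members with several probe sets, Bard1 had 3, and Nbn, Rad54l2 and Rmi1 had 2 each. For Nbn the dimmer probe set differed with Myc by -0.05 in ko and 0.04 in wt cells, against 0.27 and 0.20 for the brighter one, so its probe sets disagree. For Bard1 the 3 probe sets gave -0.20, -0.18 and -0.15 with Myc in wt cells, and 0.02, -0.05 and 0.09 in ko cells. None of the additional probe sets passed when all probe sets with 1 symbol were tested.

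The members also differed in how steady they were between arrays of 1 group. The residual SD of the log2 values ran from 0.02 in Rmi1 to 0.56 in Xrcc5, with a median of 0.15 over the 37 members. Rad51d (0.06), Mre11a (0.07) and Xrcc6 (0.08) were among the steadiest, while Palb2 (0.25), Rad51c (0.25), Rad52 and Atr (0.23) were among the most variable, and for these the same log2 difference was harder to call.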
